A study of Saccharomyces cerevisiae with 4 samples.

Results

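The 8 genes described here encode the enzymes of lysine synthesis in budding yeast, together with the protein that activates one of them. They were taken by their systematic names from the 7126 rows of the deposited expression table: LYS20, LYS21, LYS4, LYS12, LYS2, LYS5, LYS9 and LYS1. All 8 were abundant enough to be tested. Poly(A) RNA was sequenced from the budding yeast *Saccharomyces cerevisiae*, in the haploid MATa laboratory strain BY4741, in 4 libraries with CRISPR interference, in which a catalytically dead Cas9 blocks transcription at the site its guide names. The +116 libraries (A and B) carried the guide that inhibits the noncoding RNA of GAL10. The scrambled libraries (A and B) carried a guide with a scrambled sequence. Both groups grew to mid-log phase in synthetic glucose medium lacking leucine and uracil, from an optical density of 0.1 to 0.4. The labels do not name lysine as left out of this medium or say how the Cas9 protein and the guides were expressed. They also do not say whether A and B are separate transformants or cultures, so the p-values rest on library-to-library spread, which may be technical.

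Fungi make lysine through the α-aminoadipate pathway. Homocitrate synthase joins acetyl-CoA to α-ketoglutarate, the product is converted through homoisocitrate to α-aminoadipate, and the later enzymes reduce this to its semialdehyde, form saccharopine and release lysine. The pathway is known to be controlled by lysine, which inhibits homocitrate synthase, by the activator Lys14, which responds to the semialdehyde, and by Gcn4, the general activator of amino acid synthesis genes under starvation. BY4741 carries an intact LYS2, which is deleted in its sister strain BY4742.

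The libraries held 34215480 to 40628383 gene-assigned reads. The noncoding RNA that the guide inhibits was not measured here under a row of its own, so only the genes GAL1 and GAL10 are given. Whether reads of that RNA were counted in their rows was not tested, as the strand setting is not given. GAL1, the galactokinase gene, had 133.0 and 115.7 normalized reads in +116 A and B and 410.6 and 468.9 in scrambled A and B (log2 fold −1.81, limma adjusted p = 3.7e-06). GAL10, the epimerase gene beside it, had 192.0 and 171.0 normalized reads with +116 and 94.96 and 112.9 with the scrambled guide (log2 fold 0.80, limma adjusted p = 0.0403). The GAL1 call was lost without scrambled B (log2 fold −1.72, limma adjusted p = 0.0983), and the GAL10 call without scrambled A (0.68, 0.144) and without scrambled B (0.92, 0.338). Among mating-type genes, MFA1, MFA2, STE2 and BAR1 of a cells had 8609 to 26546 normalized reads, and MFALPHA1, MFALPHA2 and STE3 of alpha cells had at most 378.2. MET17, which is deleted in BY4741, was at 0 in all 4 libraries.

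Sites for the known activators were read from the reference genome in the 500 bases before each start codon, on both strands. The first motif was TCCNNNGGA, the outer bases of the Lys14 site. It occurred before 4 of the 8 genes, against 5.89% of 6006 windows of the same length. The second was TGACTC, the core of the Gcn4 site, which occurred before 3 of the 8 genes, against 12.7% of all windows. Each site is printed 5′ to 3′ on its gene's strand from RefSeq assembly R64, with the motif in capitals; LYS21 lies on the plus strand of chromosome IV, and LYS9 (chromosome XIV), LYS1 and LYS12 (both chromosome IX) and LYS2 (chromosome II) lie on minus strands. The files do not name their own build, so no coordinates are given.
LYS21, TCCNNNGGA starting 330 bases before the start codon: gagttgaaatTCCGCTGGAaatcgtcacca
LYS12, TCCNNNGGA at 182 bases: ttcactttttTCCCGTGGAaaaatattctt
LYS9, TCCNNNGGA at 225 bases: gaatcgaaatTCCGTTGGAaaaattcgctt
LYS9, TCCNNNGGA at 163 bases: attgagaattTCCAATGGAattatcagcaa
LYS1, TCCNNNGGA at 196 bases: atttttttttTCCAGCGGAatttggaattc
LYS12, TGACTC at 158 bases: atattcttaagaTGACTCtaattagaggaa
LYS2, TGACTC at 194 bases: gtttttcgcgtgTGACTCaatgtcgaaata
LYS1, TGACTC on the opposite strand at 249 bases: tactaagtcgatGAGTCAaaaaagactctt
LYS1, TGACTC on the opposite strand at 134 bases: ttcagcgacaaaGAGTCAtaaagtcatcct
LYS1 and LYS12 held both motifs, at places that do not overlap, and LYS1 held the Gcn4 core at 2 places. LYS20, LYS4 and LYS5 held neither in this window. A match to these letters is a description of the sequence and no evidence of binding.

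With the +116 guide, 1 of the 8 genes rose by the test over all genes and 0 fell, where 0.510% of all tested genes were called higher and 0.335% lower. LYS2, the α-aminoadipate reductase gene, was 1.23-fold higher. The other 7 did not pass, although the log2 fold of every one of the 8 was above 0, as was that of 50.5% of all tested genes, at 0.0168 (LYS5) to 0.30 (LYS2). In each of the 8 genes the highest value was that of +116 A, and in the 7 other than LYS2 the +116 B value was 0.971 to 1.06 times the scrambled mean. The median log2 fold of the 8 was 0.14, against 0.0013 over the 6277 tested genes. In RNA from whole cultures, more RNA in every cell and a larger share of cells with the RNA cannot be told apart.

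**Figure D1:**
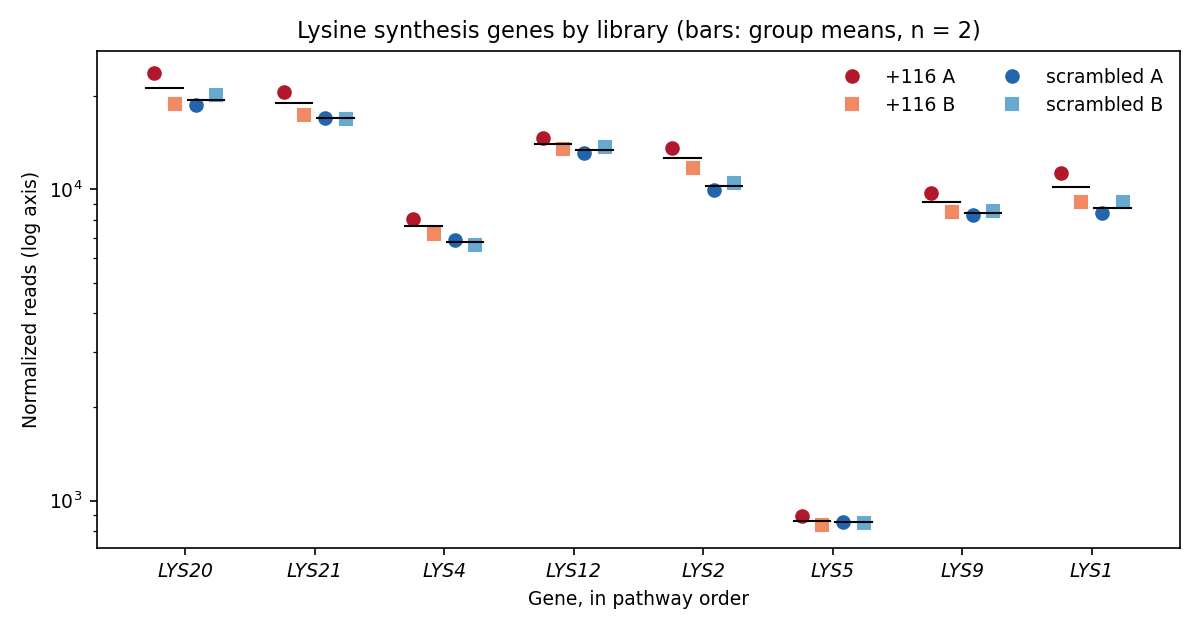
Normalized reads (log axis) of the 8 lysine synthesis genes in pathway order, 1 point per library with +116 left of scrambled and a bar at each group's mean (n = 2). The +116 A point is the highest for every gene, and the LYS5 points, 832.7 to 890.9, lie far below those of the other genes.

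For the first step, LYS20 and LYS21 encode 2 homocitrate synthase isozymes. LYS20 (YDL182W) had 23629 and 18864 normalized reads in +116 A and B, against 18692 and 20154 in scrambled A and B. The groups overlapped, because +116 B lay below scrambled B. LYS21 (YDL131W) had 20518 and 17396 normalized reads in +116 A and B, against 17011 and 16823 in scrambled A and B. Both +116 values of LYS21 were above both scrambled values, with +116 B 1.03 times the scrambled mean. Neither passed the test, at log2 folds of 0.12 ± 0.0817 for LYS20 (limma standard error, SE; adjusted p = 0.411) and 0.16 ± 0.0664 for LYS21 (limma SE; adjusted p = 0.192). The LYS20 fold was −0.04 without +116 A. The coding sequences of this pair were identical at 91.6% of 1281 aligned positions, with a longest identical run of 278 bases. Of the 50-base windows of LYS20, 37.8% were also found in LYS21, so reads from these stretches can be shared or lost between the genes and their separate values are uncertain. None of the other 6 genes shared a 50-base window with another annotated coding sequence.

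LYS4 and LYS12 encode the next enzymes, which work in mitochondria. LYS4 (YDR234W), the homoaconitase gene, had 8035 and 7192 normalized reads in +116 A and B, against 6884 and 6651 in scrambled A and B. Its groups did not overlap, but the log2 fold, 0.17 ± 0.0573, missed the threshold (limma SE; adjusted p = 0.129). LYS12 (YIL094C), the homoisocitrate dehydrogenase gene, had 14590 and 13523 normalized reads in +116 A and B, against 13101 and 13711 in scrambled A and B. Here +116 B lay between the scrambled libraries, and the log2 fold was 0.07 ± 0.0534 (limma SE; adjusted p = 0.489).

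LYS2 and LYS5 act at the reduction of α-aminoadipate. LYS2 (YBR115C) had 13554 and 11744 normalized reads in +116 A and B, against 9966 and 10499 in scrambled A and B. LYS2 was the gene in which +116 B stood furthest above the scrambled mean, at 1.15 times, with +116 A at 1.32 times. The means were 12649 ± 1280 with +116 and 10232 ± 376.8 with the scrambled guide (SD, n = 2 each), a log2 fold of 0.30 ± 0.0634 (limma SE; adjusted p = 0.0477) and a 95% interval of the fold from 1.12 to 1.36. Over all tested genes 32 of 6277 were called higher and 21 lower (50 and 77 with upper-quartile scaling), so the count of members rests on a single gene close to the threshold. The call was lost without +116 A (log2 fold 0.20, limma adjusted p = 0.0681), without scrambled A (0.27, 0.183) and without scrambled B (0.34, 0.665). LYS5 (YGL154C) encodes the phosphopantetheinyl transferase that makes the Lys2 protein active. It had 890.9 and 832.7 normalized reads in +116 A and B, against 854.7 and 848.1 in scrambled A and B. The scrambled values of LYS5 lay inside the range of the +116 values, and the 95% interval of its fold ran from 0.911 to 1.12 (limma adjusted p = 0.912). At 774 to 945 reads its counting error, 3.59% in the shallowest library, was the largest of the 8.

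LYS9 and LYS1 encode the saccharopine dehydrogenases of the last 2 steps. LYS9 (YNR050C), which forms saccharopine, had 9736 and 8479 normalized reads in +116 A and B, against 8266 and 8528 in scrambled A and B. Its +116 B value lay between the scrambled values (log2 fold 0.11, SE 0.0614, limma adjusted p = 0.298). LYS1 (YIR034C), which releases lysine, had 11264 and 9135 normalized reads in +116 A and B, against 8389 and 9093 in scrambled A and B. The LYS1 groups did not overlap, although +116 B exceeded scrambled B by little. The log2 fold of LYS1 was 0.22 ± 0.0781 (limma SE; adjusted p = 0.145), and it was 0.37 without +116 B (limma adjusted p = 1.2e-05) and 0.06 without +116 A (limma adjusted p = 0.644).

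Of the 8 genes, 4 (LYS2, LYS1, LYS4 and LYS21) had all +116 values above all scrambled values, against 27.3% of all tested genes, and 0 had them below, against 26.3%. At an unadjusted p under 0.05 the same 4 were higher, against 11.5% of tested genes, and 0 were lower, against 10.3%. The highest of the 4 values was in +116 A for 8 of 8 genes and for 23.7% of all tested genes. Relative to the scrambled mean, the median over the 8 genes was 0.26 on the log2 scale in +116 A and 0.03 in +116 B. The 8 genes together took 0.276% and 0.236% of the reads of +116 A and B, and 0.226% and 0.230% of those of scrambled A and B. Without +116 A the median log2 fold of the 8 genes was 0.03, and without +116 B it was 0.26. What set the library +116 A apart was not tested.

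**Figure D2:**
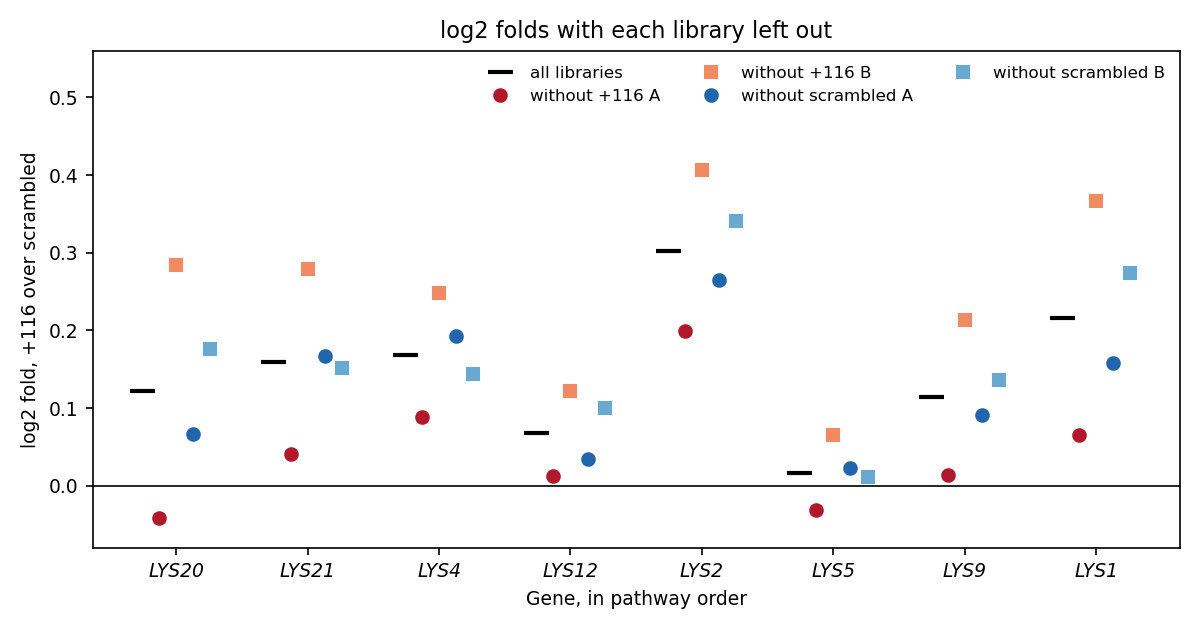
log2 fold of each lysine synthesis gene, +116 over scrambled, with all 4 libraries (bars) and with each library left out in turn (points). Without +116 A the folds lie between −0.04 (LYS20) and 0.20 (LYS2), and without +116 B between 0.07 (LYS5) and 0.41 (LYS2).

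The fold also varied with gene length across the genome, which bears on LYS2 as the longest of the 8, with 4179 bp of coding sequence against 819 bp (LYS5) to 2082 bp (LYS4) in the others. Over 5800 tested genes with a coding length the log2 fold was higher by 0.0555 per doubling of length, and its median was 0.11 in the 579 longest of these genes, to which LYS2 belongs. After the trend with length was removed from each library, LYS2 had 0.18 ± 0.0825 on the log2 scale and no longer passed (limma SE; adjusted p = 0.402). LYS4 had 0.11 after the correction, and LYS5, the shortest, had 0.07. LYS1 had 0.23, the highest of the 8 on this scale (limma adjusted p = 0.343). All 8 stayed above 0, with a median of 0.11.

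**Figure D3:**
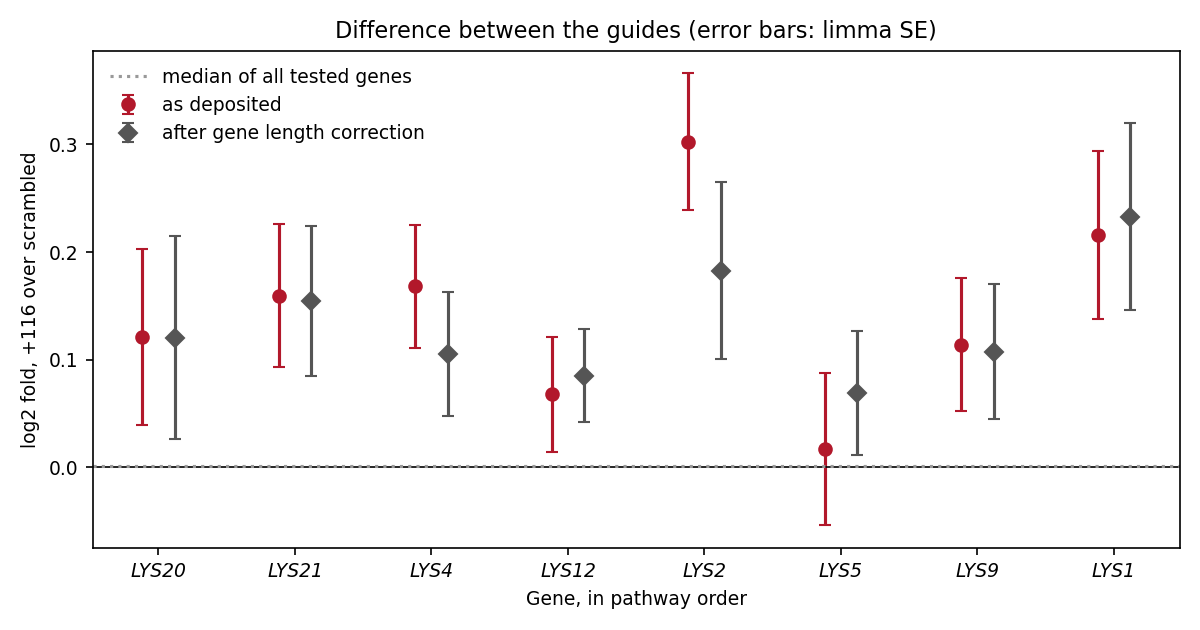
log2 fold of the 8 lysine synthesis genes, +116 over scrambled, on the deposited values (circles) and after the correction for gene length (diamonds), with the limma SE as error bars. LYS2 has 0.30 before and 0.18 after the correction, while LYS1 has 0.22 and 0.23.

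Levels were compared between the genes as normalized reads per kilobase of coding length. In both groups the order of the means was LYS20, LYS21, LYS12, LYS1, LYS9, LYS4, LYS2 and LYS5. LYS20 had a level of 16509 ± 2618 per kilobase with +116 and 15092 ± 803.3 with the scrambled guide (SD, n = 2 each). LYS5 had 1052 ± 50.2 with +116 and 1040 ± 5.72 with the scrambled guide, so that the LYS20 level was 15.7 and 14.5 times the LYS5 level. LYS20 and LYS21 were the only neighbours in this order whose library values overlapped, and they did so with the +116 guide (14658 to 18360 and 13149 to 15509 per kilobase). In both groups, reads shared by LYS20 and LYS21 make their order uncertain, and also that of LYS21 and LYS12. The genes of the first step and LYS12 thus had the highest measured RNA levels. LYS2, at 3027 ± 306.2 with +116 and 2449 ± 90.2 with the scrambled guide, stood next to the lowest.

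A list of 15 genes around the pathway was examined in the same fit, of which 14 were tested and 0 were called in either direction. At an unadjusted p under 0.05, 5 were higher and 0 lower, against 11.5% and 10.3% of all tested genes. VBA3, of vacuolar amino acid transport, was too low to test, at 1.01 to 4.38 normalized reads. The median log2 fold of the 14 was 0.09, with 11 of 14 above 0, against 50.5% of all tested genes. Among the regulators, LYS14 had 3262 and 3226 normalized reads in +116 A and B, against 3034 and 2963 in scrambled A and B. Both +116 values of LYS14 were above both scrambled ones, by a log2 fold of 0.11 (limma adjusted p = 0.221). GCN4 had 52397 and 47978 normalized reads in +116 A and B, against 50006 and 54524 in scrambled A and B. The GCN4 groups overlapped (log2 fold −0.06, limma adjusted p = 0.621), and as Gcn4 is known to be controlled mainly in translation, its mRNA level does not measure its activity. MKS1, whose product restrains the pathway, had 2153 and 2221 normalized reads with +116, against 2303 and 2143 with the scrambled guide (log2 fold −0.02, limma adjusted p = 0.849).

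The permease genes had the largest folds of this list. CAN1, the arginine permease gene, had 7381 and 6814 normalized reads in +116 A and B, against 6089 and 6089 in scrambled A and B. Its log2 fold, 0.22 ± 0.0525, lay just outside the threshold (limma SE; adjusted p = 0.0559), and it passed in 4 of 15 alternatives, among them without +116 B (limma adjusted p = 0.0027). The median log2 fold of this list was 0.12 without +116 B and 0.07 without +116 A. For ALP1, a related permease gene of low abundance, the log2 fold was 0.20 (limma adjusted p = 0.307). LYP1, the lysine permease gene, had 11064 and 10448 normalized reads in +116 A and B, against 9956 and 9869 in scrambled A and B (log2 fold 0.12, limma adjusted p = 0.197). ARO8, named here after its values were seen because it acts in the pathway itself, encodes an aminotransferase, and its log2 fold was 0.16 (limma adjusted p = 0.157). The values of ODC1, ODC2, VBA1, VBA2, KRS1 and MSK1 ranged from −0.06 (ODC2) to 0.13 (MSK1).

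Arginine and histidine synthesis were set beside lysine synthesis in the same libraries, which all the lists share. Of 9 arginine synthesis genes 0 were called, 9 had a log2 fold above 0, against 50.5% of all tested genes, and the median was 0.18. The lowest p-value was that of ARG5,6 (log2 fold 0.25, limma adjusted p = 0.0819). Of 6 histidine synthesis genes 0 were called, 5 were above 0 and the median was 0.12, with the lowest p-values in HIS4 (0.25, limma adjusted p = 0.143) and HIS7 (0.15, limma adjusted p = 0.204). At an unadjusted p under 0.05, 5 arginine and 2 histidine genes were higher, against 11.5% of all tested genes. In the same test 0 of either were lower, against 10.3%. The highest value was in +116 A for 9 of 9 arginine and 5 of 6 histidine genes, and for 23.7% of all tested genes. In +116 B the median over the scrambled mean was 0.02 on the log2 scale for arginine genes and −0.03 for histidine genes. Without +116 B the median log2 fold was 0.35 for arginine genes and 0.27 for histidine genes. Without +116 A it was 0.02 and −0.03. The lysine genes were not tested against these lists. The motif TGACTC occurred in the 500 bases before 9 of 9 arginine and 5 of 6 histidine genes, against 12.7% of all windows. TCCNNNGGA occurred before 1 arginine gene and 0 histidine genes, against 5.89% of all windows. In the list of 15 genes around the lysine pathway, each motif occurred before 5 genes.

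**Figure D4:**
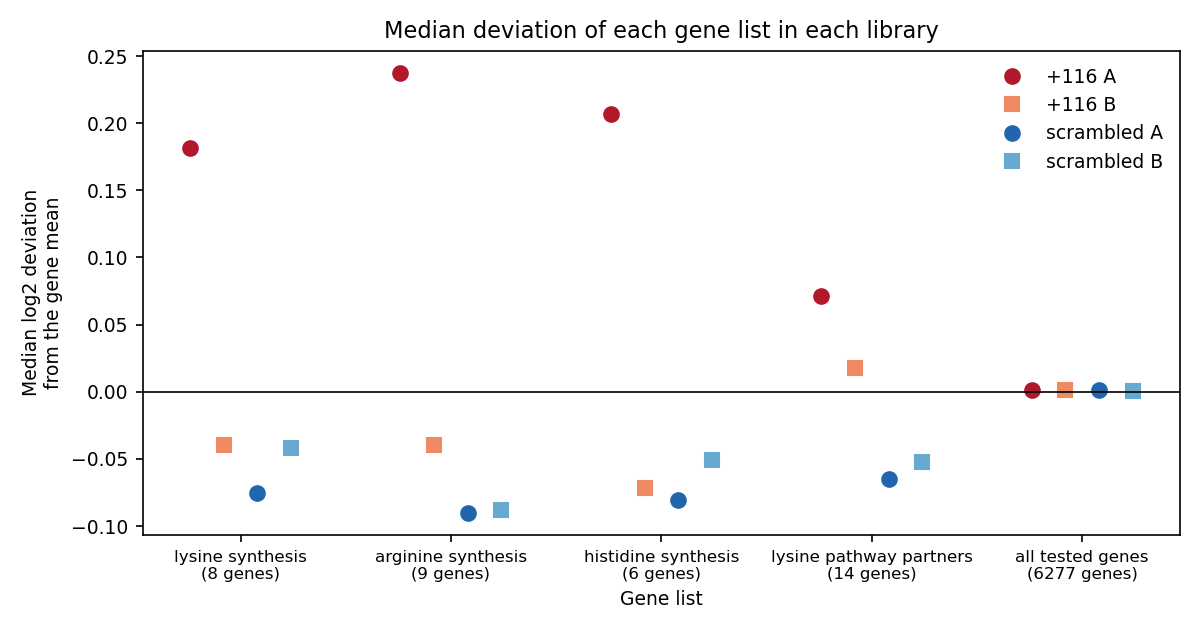
Median over each gene list of the log2 deviation from the gene's own mean, 1 point per library with +116 left of scrambled. For the 8 lysine synthesis genes the medians are 0.18 and −0.04 in +116 A and B and −0.08 and −0.04 in scrambled A and B, and for all tested genes all 4 lie near 0.

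The genes with the pattern most like the median of the 8, by Euclidean distance between log2 deviations over the 4 libraries, were HIS7 (distance 0.0301), TRP2 (0.0315) and ILV6 (0.0345), of genes with a mean of at least 100 normalized reads. HIS7 acts in histidine, TRP2 in tryptophan and ILV6 in branched-chain amino acid synthesis. TRP2 had 14268 and 12591 normalized reads in +116 A and B, against 12105 and 12433 in scrambled A and B, and ILV6 had 29193 and 25240 in +116 A and B, against 24053 and 25369 in scrambled A and B. Within the 8, LYS9 lay nearest to the median pattern, at a distance of 0.0263, and LYS2 farthest, at 0.176, with 979 genes outside the pathway nearer than it. These distances rest on 4 libraries and are a description.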

How the data were processed

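Each library is 1 column of a single table that the authors deposited. Its values are a coverage signal per gene: the authors divided each gene's read count by a size factor of its library before deposit. This was read from the values. Once divided by the column's smallest value above 0, 100% in every column came out as whole reads (tolerance 1e-06 of a read). The submitters' processing notes list, with no roles, the programs Bowtie2, DESeq2, Picard 1.84, TopHat, TopHat2 2.0.8, Trimmomatic 0.30 and bcl2fastq 1.8.4. Per the labels' protocols the kit was stranded. How reads were assigned to genes, with which strand setting, annotation and genome build, is not given in the sources used here. Libraries were grouped by their titles.

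Genes with a mean of at least 5 entered a limma 3.58.1 fit (R 4.3.3) of log2(value + 1), with the prior variance following abundance, tested on simulated data. Two-sided p-values received the Benjamini-Hochberg adjustment across the 6277 genes tested, and calls needed an adjusted p under 0.05. A fold from log2(value + 1) understates the change of a low gene. Count tests were not run. Of the alternatives, 15 were run. The length correction removed from each library a loess trend on log2 coding length. Names, coding lengths and sequences came from RefSeq R64, and coding sequences were aligned with Biopython 1.88.

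The genes and lists were chosen with earlier results of these data known. Named were all 8 members; of the pathway list GCN4, LYS14, MKS1, LYP1, any called gene and the 2 largest folds; of each compared list the 2 lowest p-values; GAL1 and GAL10; and the 3 genes of most similar pattern with a mean of at least 100. Not every gene that these rules name is reported here. Exact permutation of 2 against 2 libraries cannot reach the threshold and was not used. Intervals of a fold are from limma, and counting errors cover counting only.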

Additional observations from a re-analysis of the deposited data

How the results depend on the processing

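LYS2 was called in 8 of 15 alternatives, and its log2 fold was above 0 in all 15. The call was lost, beside the left-out libraries, with no filter on low values (limma adjusted p = 0.0964), without a variance trend (0.353) and after correction for length (0.402) or length and GC content (log2 fold 0.16, 0.446); over the alternatives the adjusted p ran from 6.6e-07 to 0.665. In these settings 0 members were called higher. Leaving out 1 library gave 0 to 6 members called higher and a median log2 fold of 0.027 to 0.26, and 0 members were called lower in any alternative. With a single library in 1 group, that library is assumed to vary like the others.

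Over all tested genes, 32 were called higher and 21 lower. The counts were 82 and 55 with a filter at a mean of 50, 2 and 5 with no filter, 39 and 32 with trimmed mean scaling, 50 and 77 with upper-quartile scaling, 0 and 1 without a variance trend, 245 and 165 with robust empirical Bayes, 0 and 1 after the length correction, 0 and 2 after length and GC content, and 0 to 205 and 0 to 92 with 1 library left out. With the letter A or B as a replicate block 170 and 88 were called, and 2 members, LYS2 and LYS1 (limma adjusted p = 0.0286). The letters do not pair the libraries in the labels, and the deviations of the A libraries from their group means correlated at −0.0413 over genes.

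GAL1 kept its call in 13 of 15 alternatives, missing it without a variance trend (limma adjusted p = 0.135) and without scrambled B. GAL10 kept it in 9, missing it without a trend (0.353), with no filter (0.0964), after length (0.252) or length and GC content (0.283), and without either scrambled library. Arginine, histidine and lysine pathway list genes called higher numbered 4, 1 and 1 with the replicate block and 1, 0 and 2 with robust empirical Bayes; a filter at a mean of 50 called 1 pathway list gene, CAN1 (0.0499).

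Signs turned, without a call, in LYS5 with upper-quartile scaling (−0.0038), ODC1 with the same scaling (−0.016), and KRS1 after length (−0.00048) and length and GC content (−0.0071). With 1 library left out the log2 fold ranged from −0.041 to 0.28 for LYS20, −0.032 to 0.065 for LYS5, −0.12 to 0.0050 for GCN4, −0.075 to 0.029 for MKS1, −0.082 to 0.091 for ODC1, −0.15 to 0.031 for ODC2, −0.039 to 0.11 for VBA2 and −0.023 to 0.11 for KRS1. The cause was not tested. The planned edgeR and DESeq2 fits were not run.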
